A study of Homo sapiens with 16 samples.

Results

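The homologous recombination and Fanconi genes are a list of 39 genes that act in the repair of DNA breaks and crosslinks and in the checkpoint that goes with it. A gene was measured where the platform annotation gave it a probe set with exactly 1 gene symbol, and of several such probe sets the one with the highest mean over 16 arrays was taken. This gave 34 of the 39, out of 19775 genes in all, and each of the 34 was among the 13483 genes bright enough to be tested. FANCA, FANCD2, BRCA2, RBBP8 and ATRIP were not analysed here. The RNA came from CEM, CUTL1, DND41 and Jurkat cells, 4 established human lines of the T-cell leukaemia (T-ALL) type. In each line 2 arrays (Affymetrix Human Genome U133 Plus 2.0) were of cells given 1 uM PD-0332991 for 15 h and 2 were of cells given DMSO, the solvent, for the same time. All groups were grown in the same medium with serum. PD-0332991, also called palbociclib, blocks the kinases CDK4 and CDK6, which phosphorylate the retinoblastoma protein before DNA synthesis begins. The comparison asks how the RNA of these genes differs after the inhibitor, and whether the lines differ in this.

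The Fanconi core complex is a ubiquitin ligase that, with the conjugating enzyme UBE2T, marks the pair FANCI and FANCD2 at forks stalled by crosslinks. In homologous recombination, broken ends are cut back to single strands, which RPA coats; BRCA1, PALB2, BRCA2 and other mediators help to replace RPA and to pair the strand with its sister, and BLM with RMI1 and RMI2 takes the joined molecules apart. ATR and CHEK1 signal from the exposed single strands. The pathway works where a sister chromatid is present, after DNA synthesis has begun, and in dividing cells many of its genes are transcribed under the control of E2F factors, which the retinoblastoma protein binds.

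RNA of most of these genes fell with PD-0332991. In the average over the 4 lines 29 of the 34 genes were lower, 1 was higher, and 4 were not called at an adjusted p under 0.05 (limma, Benjamini-Hochberg adjustment across all 13483 tested genes). Of all genes tested, 20.0% were called lower and 26.7% higher in the same comparison. The median change of the 34 was -1.12 on the log2 scale, against 0.04 for all genes tested, and 19 of them fell by at least 2-fold, as 1.85% of all genes tested did. The 1 gene that rose was FANCF, and the 4 not called were RAD50, NBN, RAD52 and ATR. The 29 that fell were spread over each of the roles described below.

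The falls were seen in each line. In CEM 26 fell, 1 rose and 7 missed the threshold, for a median of -0.95 (background 11.6% lower and 16.5% higher). CUTL1 had 27 lower, 1 higher and 6 not called, with a median of -1.41 (background 12.7% lower and 14.6% higher). In DND41 28 fell, 0 rose and 6 missed the threshold, for a median of -0.89 (background 17.1% lower and 11.1% higher). Jurkat had 26 lower, 1 higher and 7 not called, with a median of -1.11 (background 11.4% lower and 15.6% higher). All 4 lines called the same 24 genes lower, and 30 of the 34 had the same sign in every line. The other 5 that fell in the average, FANCM, RAD51B, XRCC2, XRCC3 and RPA1, missed the threshold in at least 1 line. Of all genes tested, at most the 11.4% called lower in Jurkat can be lower in all 4 lines. The share of all genes with the same sign in every line was not counted, so the 30 are a description. In such bulk RNA, fewer cells that make a transcript and less of it per cell cannot be told apart.

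**Figure D1:**
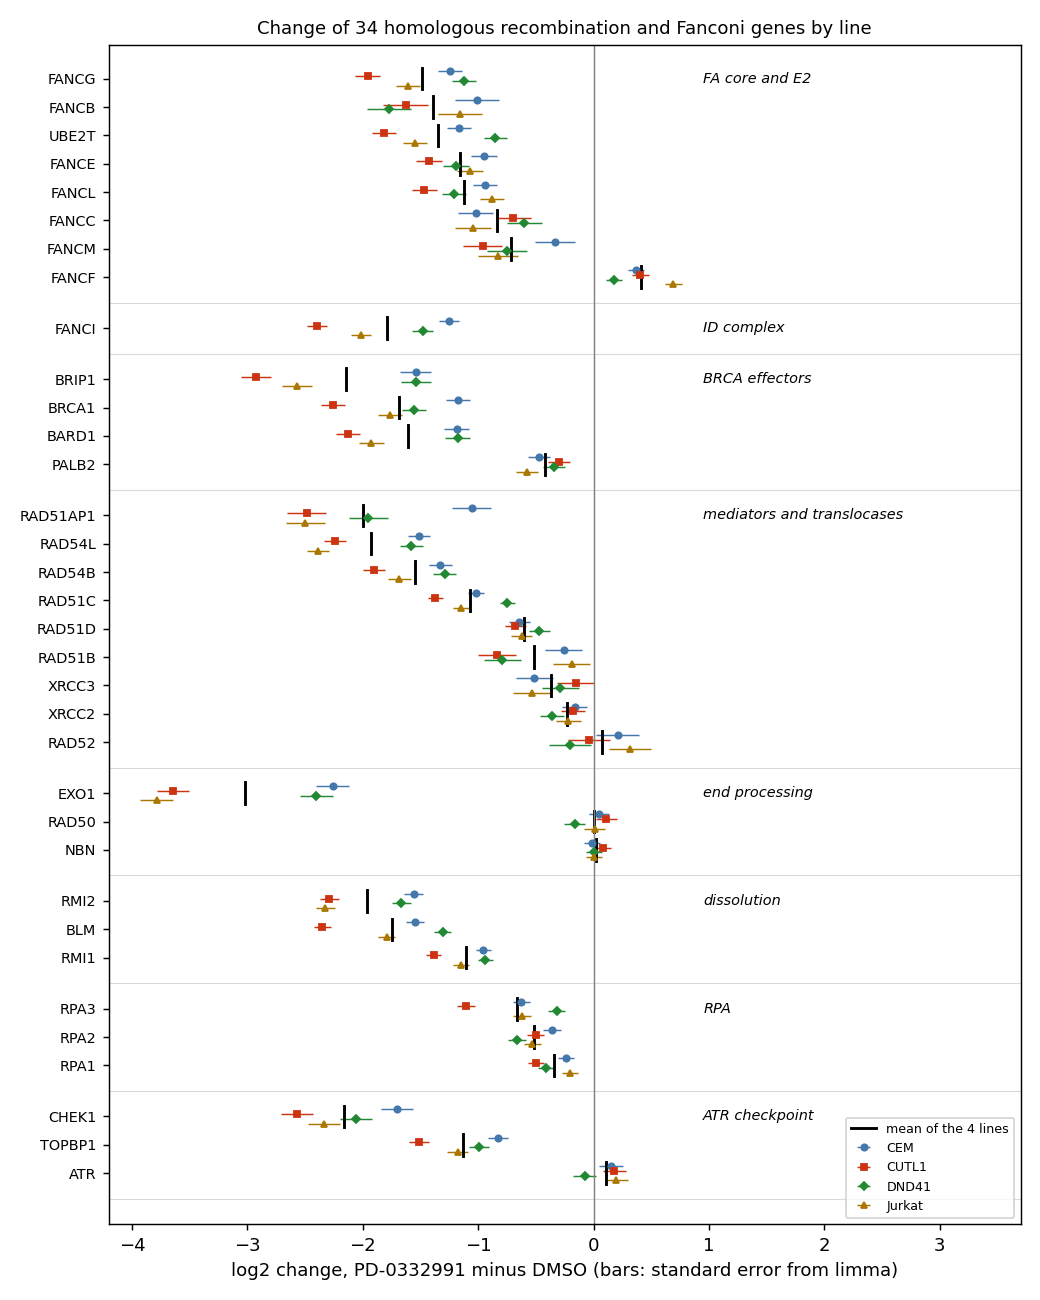
Change of each of the 34 genes in each line, as log2 of PD-0332991 minus DMSO, grouped by role, with 1 symbol per line, standard errors as horizontal bars and the mean of the 4 lines as a black mark. Points left of 0 are lower with PD-0332991, EXO1 reaches -3.79 in Jurkat, and FANCF lies right of 0 in every line.

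Each group had 2 arrays, whose number limits the precision. Whether the replicates were grown as separate cultures is not in the labels, and a p-value here reflects the spread between the arrays alone. Replicate arrays correlated at r of 0.9935 to 0.9979 across the genes tested, and their median absolute difference over the 34 genes was 0.07 to 0.14 on the log2 scale. Of 18 T-cell markers 17 had a probe set, and 15 of these were above the dim level (4.88 on the log2 scale, the median of all values) on all 16 arrays. CD8A and RAG1 were below it on some arrays. The mean level of the 17 was 9.36 to 10.02 with PD-0332991 and 9.13 to 9.62 with DMSO. In the average effect 15 of the 17 were called higher, against 26.7% of all genes tested. The myeloid list averaged 3.98 to 4.23 with PD-0332991 and 3.96 to 4.12 with DMSO, with 5 of its 7 measured genes below the dim level on every array. Markers of B cells, of erythroid cells and megakaryocytes, of cytotoxic cells, of fibroblasts and endothelium and of epithelium averaged 4.15 to 6.74 with PD-0332991 and 4.02 to 6.54 with DMSO. Below the dim level on every array were, in the same order, 1 of 6, 0 of 4, 4 of 7, 3 of 7 and 2 of 5 measured genes. Some members were bright. PECAM1 averaged 10.04 in CEM, 10.24 in DND41 and 10.57 in Jurkat, CD79A 7.54 to 10.63 over the lines and NKG7 7.72 to 8.80. The 3' minus 5' difference of the actin probe sets, a sign of RNA integrity, was 0.59 to 1.74 with PD-0332991 and 0.51 to 1.38 with DMSO. It was 1.13 to 1.74 on the CUTL1 arrays and 0.51 to 1.01 on the arrays of the other lines. The 3' minus 5' difference of the GAPDH probe sets was 0.09 to 0.19 over all 16 arrays. On the CUTL1 arrays it was 0.10 to 0.16, within the range of the other lines. CUTL1 was the line with the lowest change for 19 of the 34 genes. In DND41 the actin difference was 0.59 and 0.73 with PD-0332991 against 1.00 and 1.01 with DMSO. The part of these measures, markers, actin or GAPDH, in the results was not tested.

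Promoters of some of these genes are printed here because the genes fell together and because E2F factors are known to act on many of them. The sequences are RefSeq's, of the build GRCh38.p14, from 250 bases before to 50 bases after each gene's start, and 28 of the 34 genes had an entry. FANCI, RAD54B, RMI2, RPA2, RPA3 and NBN are named only. The letters searched on both strands, as E2F sets, were TTGGCGC or TTCGCGC or TTCCCGC or TTGCCGC, and a stricter set with 1 more T in front (TTTGGCGC or TTTCGCGC or TTTCCCGC or TTTGCCGC), each of which contains one of the shorter set. The shorter set was found in 19 of 28 genes (67.9%), against 23.6% of the 10826 tested genes with an entry and 15.3% of all 27305 genes with one. It was in 12 of the 16 genes of the list with an entry that fell by at least 2-fold and in 7 of the other 12. Among all tested genes that fell by at least 2-fold it was in 128 of 207 (61.8%). The stricter set was in 5 of 28 (17.9%), against 6.29% of tested genes and 30.4% of those that fell by at least 2-fold. The letters CCAAT were in 13 of 28 (46.4%), against 42.7% of tested genes and 53.6% of those that fell by at least 2-fold. The set TTTGAA and TTCGAA was in 3 of 28 (10.7%), against 15.7% of tested genes and 29.5% of those that fell by at least 2-fold. The G and C content of the promoters had a median of 63.7% for the list and 64.3% for tested genes. A match describes the letters only.

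Below are 130 bases around the start of 6 genes that fell by at least 2-fold and hold the letters near the start, and then of RAD50 and ATR, which were not called and have no match in the window. Each runs 5′ to 3′ on the gene's strand, with 100 bases before the start and 30 from it onward, and capitals mark the letters of either E2F set on either strand. The first entry of EXO1 lies at chr1:241848104-241848233 (plus strand) and BLM at chr15:90717246-90717375 (plus strand). BRIP1 lies at chr17:61863499-61863628 (minus strand) and the first entry of RAD54L at chr1:46247588-46247717 (plus strand). TOPBP1 lies at chr3:133661912-133662041 (minus strand) and the second entry of RMI1 at chr9:83980705-83980834 (plus strand). RAD50 lies at chr5:132556877-132557006 (plus strand) and ATR at chr3:142578704-142578833 (minus strand).
EXO1: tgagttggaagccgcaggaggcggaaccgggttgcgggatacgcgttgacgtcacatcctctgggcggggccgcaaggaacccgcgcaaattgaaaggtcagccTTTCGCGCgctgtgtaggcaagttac
BLM: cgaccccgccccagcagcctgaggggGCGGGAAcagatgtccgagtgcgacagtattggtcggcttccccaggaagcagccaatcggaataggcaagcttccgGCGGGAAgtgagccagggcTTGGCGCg
BRIP1: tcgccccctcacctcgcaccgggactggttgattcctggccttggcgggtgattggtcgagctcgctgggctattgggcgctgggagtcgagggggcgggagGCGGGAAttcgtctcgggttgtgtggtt
RAD54L: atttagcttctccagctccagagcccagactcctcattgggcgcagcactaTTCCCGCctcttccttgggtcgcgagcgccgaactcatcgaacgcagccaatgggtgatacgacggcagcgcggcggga
TOPBP1: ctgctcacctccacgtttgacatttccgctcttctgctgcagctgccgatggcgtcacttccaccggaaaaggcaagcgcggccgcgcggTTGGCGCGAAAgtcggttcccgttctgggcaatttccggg
RMI1: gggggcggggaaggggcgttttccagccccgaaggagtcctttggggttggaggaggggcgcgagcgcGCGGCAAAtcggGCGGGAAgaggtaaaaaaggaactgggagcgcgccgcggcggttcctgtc
RAD50: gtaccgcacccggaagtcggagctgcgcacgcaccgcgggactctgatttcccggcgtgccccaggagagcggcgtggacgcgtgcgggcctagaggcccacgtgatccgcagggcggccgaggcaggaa
ATR: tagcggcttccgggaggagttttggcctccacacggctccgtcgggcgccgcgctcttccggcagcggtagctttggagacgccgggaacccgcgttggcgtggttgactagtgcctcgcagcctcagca

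In EXO1 the stricter letters TTTCGCGC lay at bases 5 to 12, counted from the start as 1. EXO1 had 2 entries, and the second, which is not shown, held no match to either E2F set. BLM held 3 matches, and the 1 in BRIP1 lay at bases 3 to 9. In TOPBP1 a pair of matches overlapped, the second ending at the start. RMI1 had 2 entries, and the first, which is not shown, held no match to either E2F set. BRCA1 held a match in its second entry only. A gene was counted as holding a match where any of its entries did. FANCF, the gene that rose, also held a match (TTCGCGC at bases 2 to 8). RAD52, the third gene with an entry that was not called, held TTCCCGC on the opposite strand at bases -234 to -228, before the start and outside a stretch of the length shown. CHEK1, whose RNA fell 4.49-fold, had 3 entries and no match to either set in them, so a fall was also seen without a match in these windows.

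Of the Fanconi core complex and its conjugating enzyme, 8 genes were measured. Of these 7 fell and FANCF rose (background 20.0% lower and 26.7% higher), with a median of -1.14. UBE2T, the conjugating enzyme, fell by 1.35 in the average effect (2.54-fold, SE 0.05, adjusted p 1.5e-09). FANCG changed by -1.48 (2.80-fold), FANCB by -1.39 (2.63-fold), FANCE by -1.16 (2.24-fold) and FANCL, the subunit with the ligase activity, by -1.12 (2.18-fold). FANCC fell by 0.84 (1.79-fold), with -0.60 in DND41 (adjusted p 0.0135), where without DMSO replicate 1, DMSO replicate 2 or PD-0332991 replicate 2 the adjusted p was 0.0552, 0.0723 or 0.0791. With all its probe sets averaged, the other 2 of which had mean levels of 3.95 and 3.69, FANCC changed by -0.26 in the average (adjusted p 0.0013), and CUTL1 (-0.17, adjusted p 0.271) and DND41 (-0.02, adjusted p 0.928) were not called. FANCM, a translocase that anchors the complex on DNA, fell by 0.72 (1.65-fold), with -0.33 in CEM (adjusted p 0.181) and -0.75 in DND41 (0.0077, but 0.0614 without DMSO replicate 2). FANCB had mean levels below the dim level of 4.88 in all 4 groups given PD-0332991, so the size of its fall is less certain.

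FANCF, an adaptor protein within the core complex, was the only gene of the list that rose in the average effect. FANCF stood at 9.51 and 9.42 with PD-0332991 against 9.09 and 9.09 with DMSO in CEM, and at 9.24 and 9.31 against 8.82 and 8.92 in CUTL1 (log2 intensity). In DND41 FANCF had 9.40 and 9.45 with PD-0332991 against 9.24 and 9.24 with DMSO, and in Jurkat 8.59 and 8.48 against 7.80 and 7.89. The PD-0332991 arrays lay above the DMSO arrays in every line. FANCF changed by 0.41 in the average effect (SE 0.04, 1.33-fold, adjusted p 1.84e-06). By line it was 0.37 in CEM, 0.41 in CUTL1, 0.18 in DND41 and 0.69 in Jurkat, and in DND41 it was not called (adjusted p 0.0781). Its other probe set changed by 0.19 in the average (adjusted p 0.0062 over 24893 probe sets), by 0.01 in CEM and 0.31 in CUTL1. FANCF was called higher in DND41 with quantile scaling (0.29, adjusted p 0.0057), with cyclic loess (0.28, 0.00824) and with the stricter filter on dim genes (0.18, 0.0423). It was not called in CEM with both probe sets averaged (0.19, adjusted p 0.0575).

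FANCI, which with FANCD2 forms the pair that the core complex marks with ubiquitin, was the only one of the pair measured. FANCI stood at 9.84 and 9.73 with PD-0332991 against 11.05 and 11.03 with DMSO in CEM, and at 8.88 and 8.86 against 11.32 and 11.22 in CUTL1 (log2 intensity). In DND41 FANCI had 9.08 and 9.36 with PD-0332991 against 10.71 and 10.69 with DMSO, and in Jurkat 8.63 and 8.58 against 10.59 and 10.64. The groups did not overlap in any line. FANCI changed by -1.79 in the average effect (SE 0.04, 3.45-fold, adjusted p 3.62e-11). By line it was -1.25 in CEM, -2.40 in CUTL1, -1.48 in DND41 and -2.02 in Jurkat, deepest in CUTL1 and shallowest in CEM. Its other 2 probe sets changed by -1.84 and -1.40 in the average.

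All 4 measured genes of the BRCA group fell (background 20.0% lower), with a median of -1.65. BRIP1 is the helicase that binds BRCA1. BRIP1 stood at 7.85 and 7.59 with PD-0332991 against 9.25 and 9.27 with DMSO in CEM, and at 6.59 and 6.86 against 9.65 and 9.64 in CUTL1 (log2 intensity). In DND41 BRIP1 had 7.62 and 7.98 with PD-0332991 against 9.40 and 9.28 with DMSO, and in Jurkat 6.17 and 6.0 against 8.63 and 8.69. The PD-0332991 values lay at least 1 unit below the DMSO values in every line. BRIP1 changed by -2.15 in the average effect (SE 0.07, 4.42-fold, adjusted p 2.04e-10). By line the change was -1.54 in CEM, -2.92 in CUTL1, -1.54 in DND41 and -2.57 in Jurkat, so that CUTL1 kept 13.2% of its DMSO level and CEM and DND41 each kept 34.3%. BRCA1 changed by -1.69 (3.22-fold) and BARD1, its partner in a ubiquitin ligase, by -1.61 (3.04-fold), and both fell in all 4 lines. PALB2, which bridges BRCA1 and BRCA2, changed by -0.42 (1.34-fold, adjusted p 1.8e-05). It was called lower in each line, at -0.47 in CEM, -0.30 in CUTL1, -0.35 in DND41 and -0.58 in Jurkat. In CUTL1 this call was lost without any 1 of 7 arrays, among them CUTL1 with DMSO replicate 2, without which the change was -0.15 (adjusted p 0.272). In DND41 it was lost without DMSO replicate 1 (adjusted p 0.071), DMSO replicate 2 (0.0959) or PD-0332991 replicate 2 (0.0882), and with quantile scaling (-0.22, 0.103) or cyclic loess (-0.25, 0.0655).

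Among the 9 recombination mediators and translocases, 8 fell (background 20.0% lower) and RAD52 was not called, with a median of -0.60. RAD51AP1 binds DNA and promotes the pairing of strands. RAD51AP1 stood at 10.25 and 9.93 with PD-0332991 against 11.19 and 11.11 with DMSO in CEM, and at 8.90 and 8.76 against 11.31 and 11.32 in CUTL1 (log2 intensity). In DND41 RAD51AP1 had 9.37 and 9.89 with PD-0332991 against 11.54 and 11.62 with DMSO, and in Jurkat 8.08 and 8.09 against 10.36 and 10.81. In no line did the groups overlap. RAD51AP1 changed by -2.0 in the average effect (SE 0.09, 4.0-fold, adjusted p 4.3e-09). By line the change was -1.06 in CEM, -2.49 in CUTL1, -1.95 in DND41 and -2.50 in Jurkat, and CEM kept 48.1% of its DMSO level where Jurkat kept 17.7%. RAD54L is a translocase that moves along double-stranded DNA. RAD54L stood at 7.30 and 7.26 with PD-0332991 against 8.85 and 8.74 with DMSO in CEM, and at 6.78 and 6.76 against 9.01 and 9.01 in CUTL1 (log2 intensity). In DND41 RAD54L had 7.47 and 7.46 with PD-0332991 against 9.09 and 9.0 with DMSO, and in Jurkat 6.37 and 6.73 against 8.98 and 8.90. Every PD-0332991 array lay below every DMSO array. RAD54L changed by -1.93 in the average effect (SE 0.05, 3.81-fold, adjusted p 4.82e-11), with -1.51 in CEM, -2.24 in CUTL1, -1.58 in DND41 and -2.39 in Jurkat. Its relative RAD54B fell by 1.55 (2.93-fold).

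RAD51B, RAD51C, RAD51D, XRCC2 and XRCC3, mediators that work in complexes with each other, had average changes of -1.07 to -0.23. RAD51C changed by -1.07 (2.10-fold, adjusted p 2.83e-10) and RAD51D by -0.60 (1.52-fold, adjusted p 6.48e-07), and both were called lower in every line. Without probe sets marked _x_at or _s_at, RAD51D was measured by its other probe set, whose changes of -0.49 in CEM (adjusted p 0.143) and -0.15 in Jurkat (adjusted p 0.707) were not called. RAD51B fell by 0.52 (1.43-fold), with -0.84 in CUTL1 and -0.79 in DND41, while CEM (-0.26, adjusted p 0.268) and Jurkat (-0.19, adjusted p 0.446) were not called. The other tested probe set of RAD51B changed by -0.94 in the average (adjusted p 3.31e-06 over the probe sets), with -0.59 in CEM, -1.16 in CUTL1, -1.29 in DND41 and -0.72 in Jurkat. XRCC3 fell by 0.37 (1.29-fold, adjusted p 0.00248) and was called in CEM (-0.51, adjusted p 0.0347) and Jurkat (-0.53, adjusted p 0.03). Without CEM with DMSO replicate 1 the CEM value was -0.58 (adjusted p 0.0794), without DMSO replicate 2 it was -0.45 (0.162) and without PD-0332991 replicate 2 it was -0.39 (0.186). Without any 1 of the 4 Jurkat arrays the Jurkat value had an adjusted p of 0.0622 to 0.157. XRCC2 fell by 0.23 (1.17-fold, adjusted p 0.00353) and was called in DND41 (-0.36, adjusted p 0.0254) and in no other line. Without DND41 with DMSO replicate 2 this was -0.24 (adjusted p 0.207), and without PD-0332991 replicate 2 it was -0.25 (0.144). Its only probe set is of a kind that the array's design marks as able to pair with other transcripts too.

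RAD52, a protein that anneals single strands, did not pass the test. RAD52 stood at 5.18 and 5.47 with PD-0332991 against 5.20 and 5.04 with DMSO in CEM, and at 5.17 and 5.32 against 5.20 and 5.36 in CUTL1 (log2 intensity). In DND41 RAD52 had 5.58 and 5.62 with PD-0332991 against 5.70 and 5.90 with DMSO, and in Jurkat 5.54 and 5.10 against 5.28 and 4.73. The groups overlapped in CEM, CUTL1 and Jurkat, and in DND41 the PD-0332991 arrays lay below the DMSO arrays. The difference was 0.07 in the average effect (SE 0.09, adjusted p 0.566), and its sign differed between the lines (0.21 in CEM, -0.04 in CUTL1, -0.20 in DND41 and 0.32 in Jurkat).

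Of the 3 genes of end processing, 1 fell (background 20.0% lower) and 2 were not called. EXO1, the exonuclease that resects ends over long distances, had the largest change of the list. EXO1 stood at 6.46 and 6.41 with PD-0332991 against 8.72 and 8.67 with DMSO in CEM, and at 5.29 and 5.36 against 8.99 and 8.96 in CUTL1 (log2 intensity). In DND41 EXO1 had 6.28 and 6.42 with PD-0332991 against 8.79 and 8.73 with DMSO, and in Jurkat 4.37 and 4.96 against 8.51 and 8.39. The PD-0332991 arrays lay at least 2 units below the DMSO arrays of the same line. EXO1 changed by -3.02 in the average effect (SE 0.07, 8.14-fold, adjusted p 2.6e-11). By line the change was -2.26 in CEM, -3.65 in CUTL1, -2.40 in DND41 and -3.79 in Jurkat, which left 20.9% of the DMSO level in CEM, 7.99% in CUTL1, 18.9% in DND41 and 7.25% in Jurkat. In Jurkat the mean with PD-0332991, 4.66, lay below the dim level, and the fall there is correspondingly less certain.

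RAD50 and NBN belong to the complex that first binds a broken end, and neither passed the test in the average effect with the probe set used. RAD50 stood at 8.46 and 8.35 with PD-0332991 against 8.41 and 8.30 with DMSO in CEM, and at 9.04 and 9.08 against 8.97 and 8.93 in CUTL1 (log2 intensity). In DND41 RAD50 had 8.37 and 8.37 with PD-0332991 against 8.58 and 8.49 with DMSO, and in Jurkat 8.18 and 7.90 against 8.07 and 8.0. In DND41 the PD-0332991 arrays of RAD50 lay below the DMSO arrays, in CUTL1 above them, and in CEM and Jurkat the groups overlapped. The difference was 0.0 in the average effect (SE 0.04, adjusted p 0.991). NBN stood at 10.75 and 10.74 with PD-0332991 against 10.75 and 10.76 with DMSO in CEM, and at 10.52 and 10.55 against 10.41 and 10.51 in CUTL1 (log2 intensity). In DND41 NBN had 10.85 and 11.01 with PD-0332991 against 10.92 and 10.94 with DMSO, and in Jurkat 10.82 and 10.78 against 10.75 and 10.84. The NBN arrays given PD-0332991 lay just below the DMSO arrays in CEM and above them in CUTL1, and the groups overlapped in DND41 and Jurkat. The NBN difference was 0.02 in the average effect (SE 0.03, adjusted p 0.708). Other probe sets of both genes gave other calls: the 2 further ones of RAD50 changed by 0.17 and 0.15 (adjusted p 0.0139 and 0.0441 over the probe sets), and the 3 further tested ones of NBN by -0.21, -0.34 and -0.38 (adjusted p 0.00672, 0.0108 and 8.8e-05). MRE11, the nuclease of the same complex and no member of the list, changed by -0.72 (adjusted p 9.9e-08).

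All 3 listed genes of the dissolution complex fell (background 20.0% lower), with a median of -1.75. TOP3A, of the same complex and no member of the list, changed by -0.61 (adjusted p 7.93e-06). BLM is the helicase of the complex. BLM stood at 7.89 and 7.89 with PD-0332991 against 9.42 and 9.46 with DMSO in CEM, and at 6.96 and 6.95 against 9.31 and 9.31 in CUTL1 (log2 intensity). In DND41 BLM had 7.37 and 7.46 with PD-0332991 against 8.75 and 8.70 with DMSO, and in Jurkat 7.13 and 7.25 against 9.08 and 8.88. No PD-0332991 array reached a DMSO array. BLM changed by -1.75 in the average effect (SE 0.04, 3.36-fold, adjusted p 1.31e-11), with -1.55 in CEM, -2.35 in CUTL1, -1.31 in DND41 and -1.79 in Jurkat. RMI2, a small subunit, differed between the lines already with DMSO. RMI2 stood at 9.28 and 9.17 with PD-0332991 against 10.80 and 10.78 with DMSO in CEM, and at 7.78 and 7.78 against 10.14 and 10.0 in CUTL1 (log2 intensity). In DND41 RMI2 had 8.63 and 8.84 with PD-0332991 against 10.40 and 10.41 with DMSO, and in Jurkat 6.11 and 6.11 against 8.44 and 8.44. Jurkat lay lowest under both treatments. RMI2 changed by -1.96 in the average effect (SE 0.04, 3.89-fold, adjusted p 8.83e-12). By line it was -1.56 in CEM, -2.29 in CUTL1, -1.67 in DND41 and -2.32 in Jurkat. Its average effect had the smallest adjusted p of the list. RMI1, the other small subunit, fell by 1.11 (2.16-fold, adjusted p 1.81e-10). Its smallest fall was in DND41 (-0.94) and its deepest in CUTL1 (-1.39).

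The 3 subunits of RPA, the protein that coats single strands, all fell in the average effect (background 20.0% lower), with a median of -0.51. RPA3 changed by -0.67 (1.59-fold), RPA2 by -0.51 (1.43-fold) and RPA1, the large subunit, by -0.34 (1.27-fold), with adjusted p of 4.98e-08, 5.22e-07 and 1.04e-05. RPA3 was at -1.11 in CUTL1 and -0.32 in DND41, where without DMSO replicate 1 the adjusted p was 0.0504 and without PD-0332991 replicate 2 it was 0.0511. RPA1 was called lower in CEM (-0.24, adjusted p 0.0259), but without any 1 of the 4 CEM arrays the adjusted p was 0.0546 to 0.15. In Jurkat RPA1 missed the threshold (-0.20, adjusted p 0.0533). RPA1 was called lower there with cyclic loess (adjusted p 0.0497), an added constant (0.0444), the stricter filter on dim genes (0.0256) and the variance trend (0.0116). The change was -0.20 under each of these settings. With all probe sets averaged it was not called in DND41 (-0.22, adjusted p 0.066).

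Of the ATR branch 3 genes were measured, of which 2 fell (background 20.0% lower). CHEK1, the kinase that ATR activates, had the second largest change of the list. CHEK1 stood at 8.29 and 7.96 with PD-0332991 against 9.93 and 9.73 with DMSO in CEM, and at 7.42 and 7.57 against 10.04 and 10.09 in CUTL1 (log2 intensity). In DND41 CHEK1 had 7.80 and 7.93 with PD-0332991 against 9.98 and 9.86 with DMSO, and in Jurkat 7.50 and 7.72 against 9.78 and 10.11. In every line the PD-0332991 arrays lay more than 1 unit below the DMSO arrays. CHEK1 changed by -2.17 in the average effect (SE 0.07, 4.49-fold, adjusted p 2.87e-10), with -1.70 in CEM, -2.57 in CUTL1, -2.06 in DND41 and -2.34 in Jurkat. A pair of its other probe sets gave -2.05 and -2.29. A further one, with a mean level of 6.17 on the log2 scale, was called the other way, at 0.24 (adjusted p 0.0177 over the probe sets). TOPBP1, which activates ATR, fell by 1.13 (2.19-fold, adjusted p 1.62e-09). ATR itself was not called in the average effect. ATR stood at 9.63 and 9.50 with PD-0332991 against 9.40 and 9.43 with DMSO in CEM, and at 8.98 and 9.04 against 8.70 and 8.96 in CUTL1 (log2 intensity). In DND41 ATR had 9.72 and 9.69 with PD-0332991 against 9.78 and 9.78 with DMSO, and in Jurkat 9.43 and 9.48 against 9.13 and 9.39. In CEM, CUTL1 and Jurkat the PD-0332991 arrays lay above the DMSO arrays, and in DND41 they lay below them. The difference was 0.11 in the average effect (SE 0.05, adjusted p 0.0925), with 0.15 in CEM, 0.18 in CUTL1, -0.08 in DND41 and 0.20 in Jurkat. In the average without CUTL1 with DMSO replicate 2 it was 0.14 (adjusted p 0.0251), and without Jurkat with DMSO replicate 2 it was also 0.14 (adjusted p 0.0257). ATR was also called higher with quantile scaling (0.14, adjusted p 0.0213), with cyclic loess (0.12, 0.0398), with all probe sets averaged (0.09, 0.049) and in the average without DND41 (0.17, 0.0283).

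**Figure D2:**
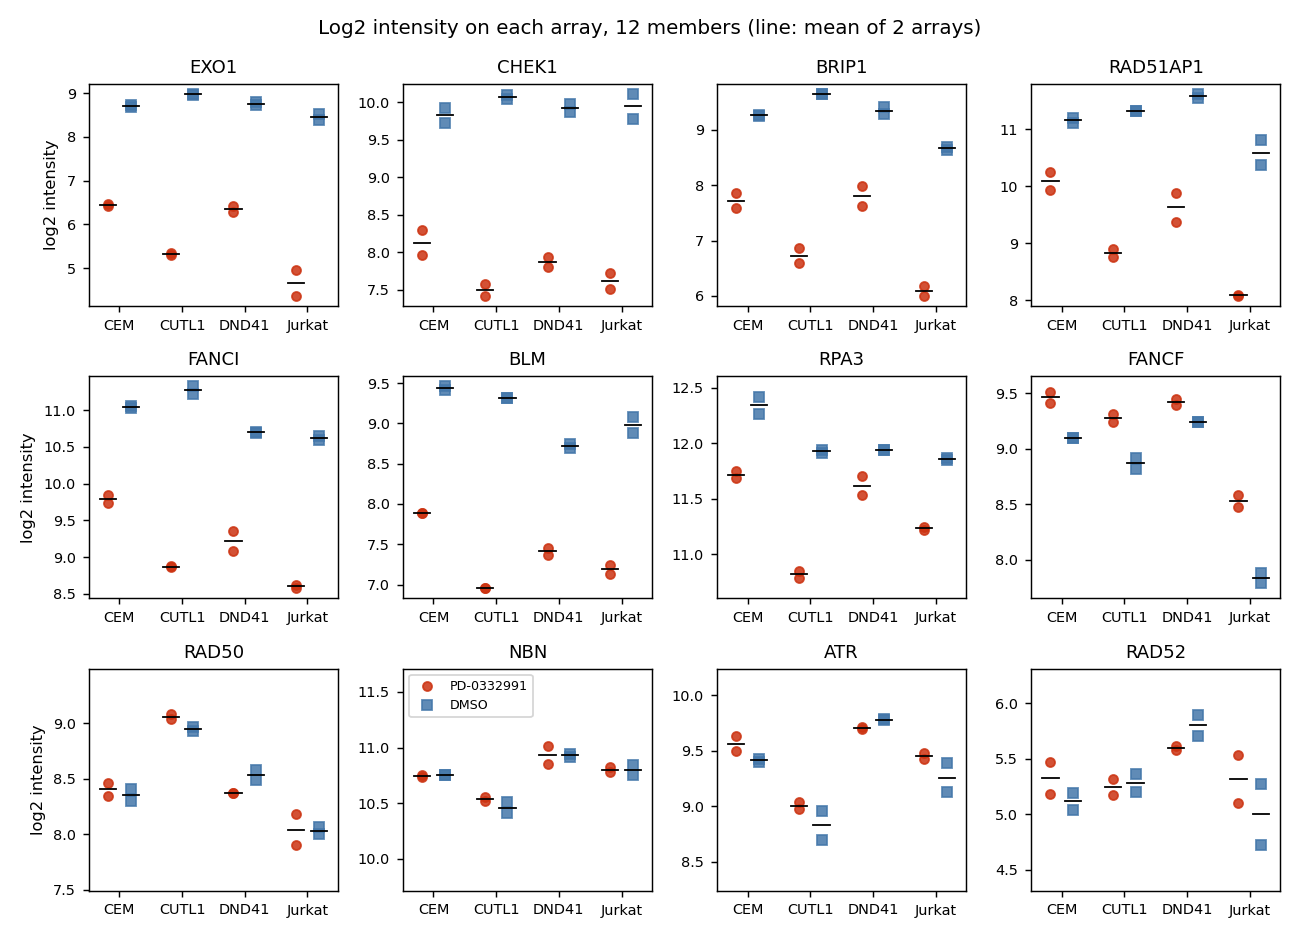
Level of 12 genes on each array, in log2 intensity, with PD-0332991 (circles) left of DMSO (squares) in each line, 1 point per array and the mean of 2 arrays as a short line. For EXO1 the 2 groups stand 2.26 to 3.79 apart, while RAD50 and ATR lie close.

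The other probe sets serve as a further measure of the same RNA. Of the 34 genes 17 had more than 1 probe set, which gave 36 others, of which 25 were bright enough to be tested. Of these 25, 20 had the sign of the probe set used. The values of BRCA1 (-1.69 and -1.11), BARD1 (-1.61, -1.55 and -1.31) and RAD51C (-1.07 and -0.98) ran the same way.

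**Figure D3:**
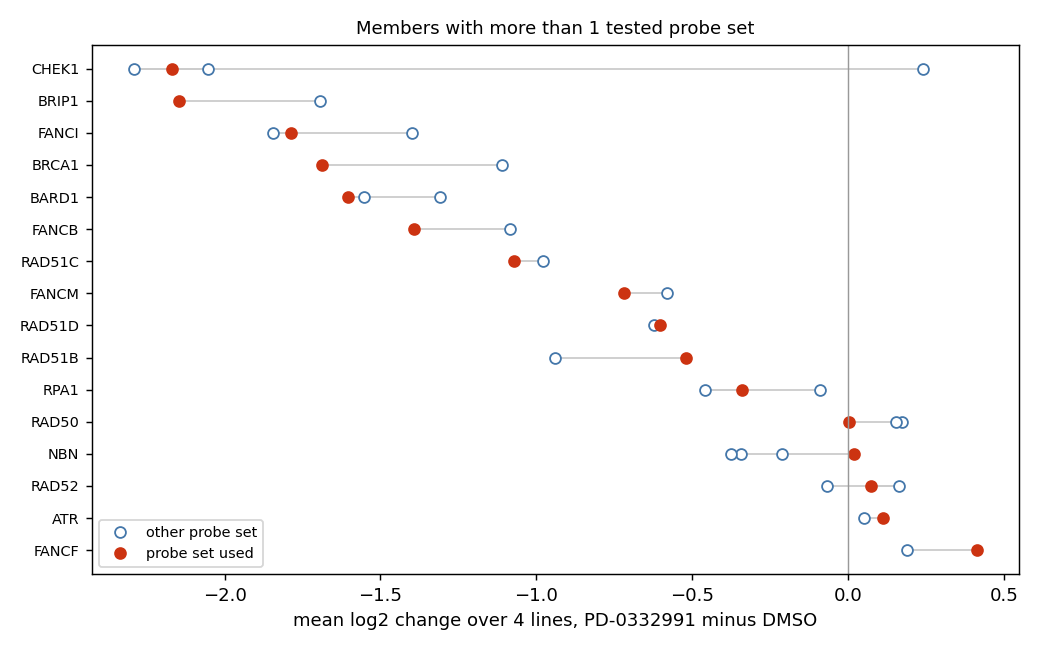
Average change of every tested probe set of the genes with more than 1, as log2 of PD-0332991 minus DMSO, with the probe set used filled and the others open. Most others lie on the side of the one used, and the CHEK1 probe set at 0.24 lies across 0 from the other 3.

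The falls differed in size between the lines. For 18 of the 34 genes the 4 changes differed (limma F test on 3 degrees of freedom, adjusted p under 0.05), as they did for 12.6% of all genes tested. The change was lowest (the deepest fall or smallest rise) in CUTL1 for 19 genes, in DND41 for 7, in Jurkat for 7 and in CEM for 1. It was highest in CEM for 13 genes, in DND41 for 11, in Jurkat for 6 and in CUTL1 for 4. How often each line was lowest or highest over all genes tested was not counted. Of the 13483 genes tested, 428 were called lower by at least 2-fold in CUTL1, 312 in Jurkat, 302 in DND41 and 170 in CEM. Of the 34 genes the counts were 20, 19, 15 and 16 in the same order. The 5 smallest p of the F test belonged to FANCI (adjusted p 0.000734), BLM (0.000751), EXO1 (0.000979), BRIP1 (0.00129) and RMI2 (0.00195). Across the 34 genes the changes of any 2 lines correlated at Pearson r of 0.89 (DND41 and CEM) to 0.96 (CUTL1 and Jurkat), a description in which genes of a line share its arrays.

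CUTL1 against CEM gave the most called differences. There 16 genes fell more deeply in CUTL1 and 0 less deeply, with a median difference of -0.55, while 3.78% of all genes tested were called lower and 1.36% higher. BRIP1 differed by -1.38 (adjusted p 0.00181), RAD51AP1 by -1.43 (0.00595), EXO1 by -1.39 (0.00266) and FANCI by -1.15 (0.000521). In CUTL1 against DND41, 15 genes were lower and 0 higher, with a median of -0.35 (background 3.55% and 3.60%). CUTL1 against Jurkat gave 2 lower and 0 higher, with a median of -0.23 (background 1.62% and 0.927%). These 2 were BLM at -0.56 (adjusted p 0.0191) and RPA3 at -0.49 (adjusted p 0.0358).

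Jurkat also fell more deeply than CEM in 7 genes and less deeply in 0, with a median of -0.16 (background 1.64% and 0.334%). EXO1 differed by -1.53 (adjusted p 0.00188) and RAD51AP1 by -1.44 (0.00861). Jurkat against DND41 gave 9 lower and 1 higher, with a median of -0.22 (background 3.12% and 6.40%). The 1 higher was FANCF, which rose by 0.51 more in Jurkat (adjusted p 0.0119). DND41 against CEM gave 1 lower, RAD51AP1 at -0.90 (adjusted p 0.0427), and 0 higher, with a median of -0.15 (background 6.77% and 2.54%). The 6 pairwise tests share lines, so their counts are not independent.

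**Figure D4:**
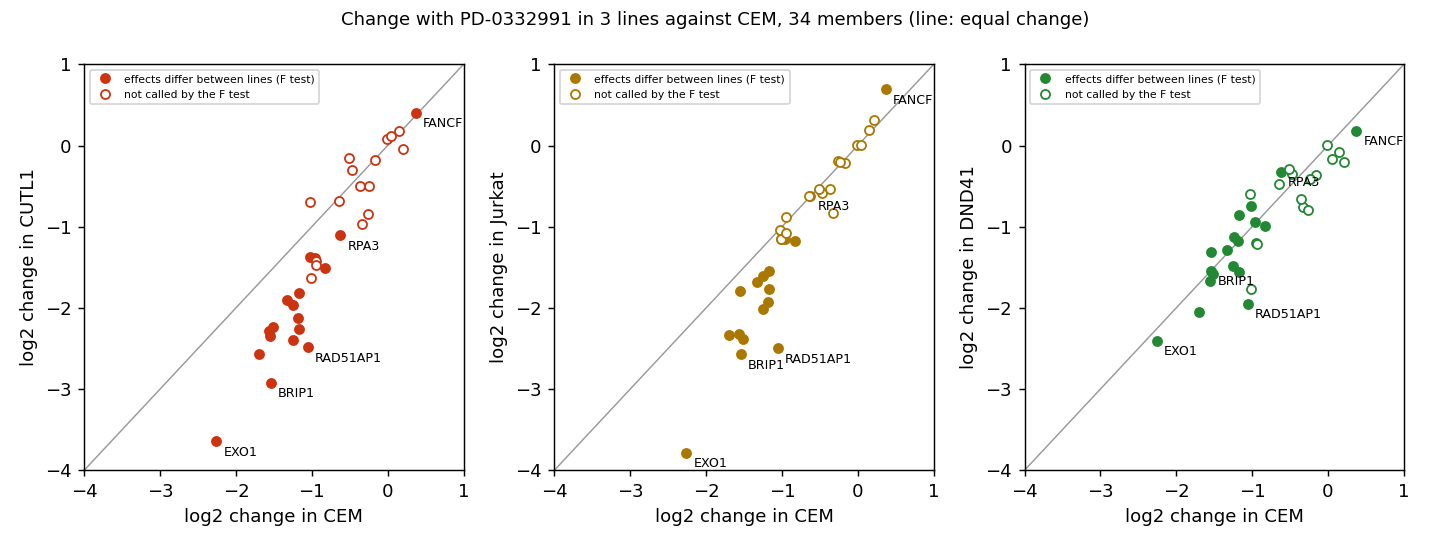
Change of each gene in CUTL1, Jurkat and DND41 (vertical axes) against its change in CEM, as log2 of PD-0332991 minus DMSO, with the line of equality and filled points where the 4 lines differed. Most points of CUTL1 lie below that line, where 27 of 34 differences from CEM are negative. Over all genes tested the median of this difference is -0.004.

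The level with DMSO also differed between the lines, for 29 of 34 genes, where 71.2% of all genes tested differed. UBE2T, RAD54L, CHEK1, XRCC3 and RPA1 were the 5 not called. The widest range was that of RMI2, 2.35 on the log2 scale, with 8.44 in Jurkat, 10.07 in CUTL1, 10.40 in DND41 and 10.79 in CEM. FANCF spanned 1.40, with 7.84 in Jurkat against 8.87 to 9.24 in the other lines. FANCE spanned 1.18 and was lowest in CUTL1, at 7.12. RAD54L, by contrast, spanned 0.25 with DMSO and changed by -1.51 in CEM and -2.39 in Jurkat.

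Other genes of the same pathways are set beside the list as a comparison. It is a description, as all the lists were chosen with earlier results of these data known. Of 63 such genes 60 were measured and tested. In the average effect 39 of these fell, 7 rose and 14 missed the threshold (background 20.0% lower and 26.7% higher). Their median was -0.39, and 9 fell by at least 2-fold (background 1.85%). The largest falls were those of CLSPN, the adaptor that brings CHEK1 to ATR (-2.58), and of MCM8, a helicase of recombination (-1.78). They were followed by FIGNL1 (-1.53), TIMELESS, a fork protection factor (-1.45), and SLF1 (-1.41). ATM, the kinase that responds to breaks, rose by 0.46 (adjusted p 0.000368), BABAM2 by 0.27, WDR48 by 0.24, TP53BP1 by 0.23, ERCC1 by 0.23, ZSWIM7 by 0.17 and FAAP20 by 0.10 (adjusted p 0.0319).

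End joining, the route that ligates broken ends without a template, is the other main way to repair a break. Of its 10 listed genes 9 were measured. Of these 5 fell, 3 rose and 1 was not called (background 20.0% lower and 26.7% higher). The median was -0.18, and 0 fell by at least 2-fold, which in 9 genes cannot be told from the background of 1.85%. PAXX changed by -0.76, XRCC4 by -0.44 and PRKDC, the catalytic kinase, by -0.41. XRCC6 and XRCC5, the Ku subunits, changed by -0.19 and -0.18. LIG4, the ligase, rose by 0.63 in the average (adjusted p 8.25e-05), with 1.09 in CEM, 0.72 in CUTL1, -0.19 in DND41 and 0.91 in Jurkat. The polymerases POLL and POLM rose by 0.37 and 0.35, and DCLRE1C was at -0.04 (adjusted p 0.781).

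**Figure D5:**
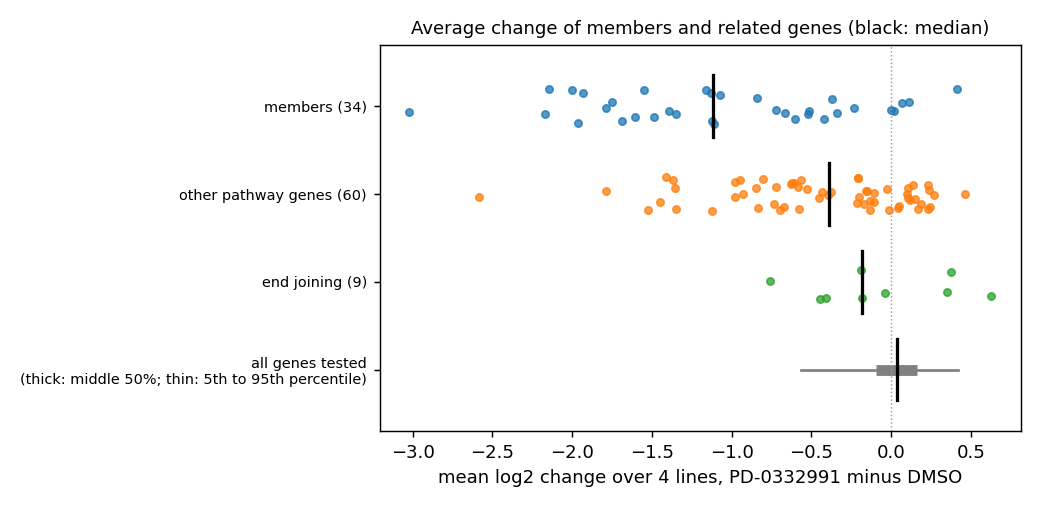
Average change of each gene, as log2 of PD-0332991 minus DMSO, for the list, the other pathway genes and the end joining genes, with medians in black and the spread of all genes tested as a bar. The 34 genes have a median of -1.12, the other pathway genes -0.39 and end joining genes -0.18.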

How the data were processed

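Per the labels' protocols, total RNA (Qiagen kit) was amplified with a Nugen Ovation kit and hybridised as biotin-labelled cDNA. The authors made the deposited intensity values with RMA, per the submitters' processing notes. Its version, the probe set definition and a genome build were not given in the sources used here. They are on a linear scale (4.42 to 26097, array medians 28.5 to 31.2), and log2 was taken with no further scaling. Of 54675 probe sets, 41097 had 1 gene symbol. A dim filter kept the 13483 genes whose mean in 1 or more of the lines (4 arrays each) was at or above 29.5, the median of all values (4.88 on the log2 scale). The means of 8 groups were modelled by limma 3.58.1 under R 4.3.3, using lmFit, then eBayes (degrees of freedom: 8 residual, 3.32 prior), and two-sided tests were adjusted by Benjamini-Hochberg over those genes, and the fit was tested on simulated data. The average effect weights the lines equally. Probe sets were also fitted singly, over 24893. Figures and motif searches used pandas 2.3.3 and matplotlib 3.10.9 in Python 3.11.15. The members and lists, the tests and the named genes were chosen with earlier results of these data known. Every measured gene of the list is named. Values on all arrays are given for the 8 largest average changes, for genes that rose or were not called, and for the 5 smallest interaction p. Of other pathway genes the 5 largest falls, every rise, MRE11 and TOP3A are named, and of end joining every measured gene. Same-numbered arrays did not deviate together in every line (correlations of deviations 0.08, 0.19, -0.11 and 0.10 in CEM, CUTL1, DND41 and Jurkat), so the numbers were not taken as pairs. Alternatives covered array centring, quantile and cyclic loess scaling, an added constant, the filter on dim genes, the choice of probe set, the variance trend, the replicate block, each line as 1 replicate and leaving out each array. The averages that leave out a line were chosen after seeing the data.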

Additional observations from a re-analysis of the deposited data

Results flagged for a closer look

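The change with PD-0332991 differed between the 4 lines for 18 genes of the list (limma F test of the differences, adjusted over 13483 genes), of 34 tested, where 12.6% of all genes tested differed. The adjusted p was 0.000734 for FANCI, 0.000751 for BLM, 0.000979 for EXO1, 0.00129 for BRIP1 and 0.00195 for RMI2. It was 0.00342 for BARD1, 0.00354 for RAD54L, 0.0045 for BRCA1, 0.00469 for RPA3, 0.00603 for UBE2T, 0.00752 for RAD51AP1 and 0.00903 for RAD51C. It was 0.0139 for FANCG, 0.0179 for TOPBP1, 0.0257 for RMI1, 0.0303 for RAD54B, 0.0308 for FANCF and 0.0451 for CHEK1. BRCA1 changed by -1.17 in CEM, -2.26 in CUTL1, -1.55 in DND41 and -1.77 in Jurkat, and UBE2T by -1.17, -1.82, -0.85 and -1.55 in the same order of lines.

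Some of these calls were lost when 1 array was left out. The call of CHEK1 was lost without any 1 of 12 arrays, with an adjusted p of up to 0.117 (without CEM with DMSO replicate 2). That of FANCF was lost without any 1 of 10 arrays (up to 0.102, without Jurkat with PD-0332991 replicate 1). RAD54B lost it without any 1 of 7 (up to 0.0823, without CUTL1 with PD-0332991 replicate 1) and RMI1 without any 1 of 7 (up to 0.0795, without CUTL1 with PD-0332991 replicate 2). FANCG lost it without CUTL1 with PD-0332991 replicate 1 (0.0501) and TOPBP1 without CUTL1 with PD-0332991 replicate 2 (0.0617).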

How the results depend on the processing

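The count of genes lower in the average effect was 29 without any 1 array and 23 to 29 under the other settings. The lowest counts came where fewer genes could be tested, 27 of the list without probe sets marked _x_at or _s_at (23 lower) and 28 with the stricter filter on dim genes (24 lower). Without 1 array, CEM had 24 to 26 lower, CUTL1 26 to 27, DND41 24 to 28 and Jurkat 25 to 27, differences between lines 13 to 20, and differences in DMSO level 24 to 30. The genes higher in the average effect were 1 to 2 without 1 array. They were 2 with quantile scaling, cyclic loess, no _x_at or _s_at probe sets or the average without DND41, and 3 with all probe sets averaged; beside FANCF these were RAD50 without _x_at or _s_at probe sets, RAD50 and ATR with probe sets averaged, and ATR in the other 3. Those higher in DND41 were 1 with quantile scaling, cyclic loess or the stricter filter, in CEM 0 with probe sets averaged, in CUTL1 2 with probe sets averaged or without _x_at and _s_at probe sets, and in Jurkat 1 to 2 without 1 array. With all probe sets averaged NBN was lower, at -0.18 in the average (adjusted p 0.000504), -0.32 in DND41 (0.0036) and -0.21 in Jurkat (0.0323). XRCC2 lost its average call with each line as 1 replicate (adjusted p 0.0594). With the replicate block 29 genes were lower and 1 higher in the average, 24, 26, 27 and 25 were lower in CEM, CUTL1, DND41 and Jurkat, and 15 differed between lines; DMSO levels were not run with the block. Of 4520 values of single genes under these settings, 4407 kept direction and call, 47 lost the call and 23 gained it. The direction turned in 43 (NBN 14, RAD50 19, RAD52 4, ATR 3, XRCC3 2, RAD51B 1), of which 0 had been called before and the 3 of NBN with probe sets averaged were called after. No scaling moved the median of all genes by more than 0.1. Signal limits FANCB and EXO1, whose lowest groups lay below the dim level, and RAD52, whose mean lay near it. The causes were not tested.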
